A study of Mus musculus with 12 samples.

Results

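The neighbourhood of Bmi1 was taken as a stretch of 1.7 Mb of mouse chromosome 2 (build mm10, GRCm38), and every ATAC-seq peak that 12 deposited peak lists held there was placed against 9 listed genes: Skida1, Mllt10, Dnajc1, Commd3, Bmi1, Spag6, Pip4k2a, Armc3 and Msrb2. Peaks that overlapped by 1 bp or more were merged, which gave 41 regions in the neighbourhood of 43905 on chromosomes 1 to 19. ATAC-seq marks open DNA by the places where a transposase can insert sequencing adapters. The cells were CD45.2+ marrow cells of C57BL/6 mice in 4 groups of 3 libraries: marrow with the genotype CD45.2(+) and no fusion named (Control), and leukaemic cells with CD45.2(+) and MLL-AF9 (MA9), MLL-ENL (ME) or BRD9-NUTM1 (BN1). All 4 groups were FACS-sorted, 150000 cells a sample. The labels named no promoter, vector, age or treatment for the fusions, and did not say whether the 3 libraries of a group were separate animals, so p-values measure only the spread between these samples.

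Bmi1 is a subunit of Polycomb repressive complex 1 (PRC1), which keeps genes silent by marking histone H2A, and blood stem cells need it to renew themselves. Its best known silenced target is Cdkn2a, which encodes the cell cycle inhibitors p16 and p19Arf. Commd3 lies head to tail before Bmi1 and encodes a subunit of the Commander complex of endosomal recycling. Mllt10 encodes AF10, a cofactor of the histone methyltransferase DOT1L and itself a fusion partner of MLL in leukaemia. The human counterpart of this stretch of chromosome, BMI1 included, is known for high expression in infant leukaemias with NUTM1 fusions. The peak lists show where chromatin was called open and say nothing of expression.

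The promoters of 5 listed genes with peaks over them are shown because the calls below turn on them. A sixth, that of Msrb2, was overlapped by 51, 66 and 81 bp in MA9 and is not printed. Each line gives the 250 bases before the start, 5′ to 3′ along the gene, from RefSeq (GRCm38.p6). Capitals mark matches on either strand to GGGCGG (the GC box), CACGTG (the E-box) or CCGGAAG (an ETS motif), and neighbouring GC box matches may overlap.
Mllt10, the third listed start, plus strand, chr2:18064335-18064584: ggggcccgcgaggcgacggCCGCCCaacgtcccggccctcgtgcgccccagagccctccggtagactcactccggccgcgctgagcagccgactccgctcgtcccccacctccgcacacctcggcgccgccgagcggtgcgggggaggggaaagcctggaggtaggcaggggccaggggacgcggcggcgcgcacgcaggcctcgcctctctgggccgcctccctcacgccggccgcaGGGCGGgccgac
Dnajc1, minus strand, chr2:18392831-18393080: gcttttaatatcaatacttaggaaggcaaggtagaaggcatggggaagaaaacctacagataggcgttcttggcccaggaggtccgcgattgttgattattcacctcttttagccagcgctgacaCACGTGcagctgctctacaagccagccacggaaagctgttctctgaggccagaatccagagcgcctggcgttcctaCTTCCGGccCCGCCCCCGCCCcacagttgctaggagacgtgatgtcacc
Commd3, plus strand, chr2:18672185-18672434: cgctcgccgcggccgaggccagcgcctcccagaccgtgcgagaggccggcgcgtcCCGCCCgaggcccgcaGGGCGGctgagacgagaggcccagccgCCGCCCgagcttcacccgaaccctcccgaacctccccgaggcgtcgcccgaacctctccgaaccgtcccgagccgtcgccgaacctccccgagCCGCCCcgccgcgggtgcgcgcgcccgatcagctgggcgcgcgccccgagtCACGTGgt
Bmi1, plus strand, chr2:18676768-18677017: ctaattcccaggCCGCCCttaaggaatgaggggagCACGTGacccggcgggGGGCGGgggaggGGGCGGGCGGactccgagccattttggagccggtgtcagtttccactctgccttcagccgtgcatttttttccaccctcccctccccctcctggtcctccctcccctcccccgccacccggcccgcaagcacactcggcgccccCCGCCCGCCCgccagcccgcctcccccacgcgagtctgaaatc
Pip4k2a, minus strand, chr2:18998122-18998371: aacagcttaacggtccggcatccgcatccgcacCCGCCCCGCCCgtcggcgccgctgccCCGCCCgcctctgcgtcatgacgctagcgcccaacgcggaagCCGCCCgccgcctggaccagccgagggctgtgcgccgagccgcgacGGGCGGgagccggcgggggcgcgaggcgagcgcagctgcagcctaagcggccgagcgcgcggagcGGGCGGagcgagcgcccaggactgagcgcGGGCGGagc

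The promoters of Mllt10, Commd3 and Pip4k2a, called in all Control, MA9 and ME libraries, were 79.2%, 78.8% and 78.8% G or C and held 36, 45 and 45 CpG pairs. Their CpG counts lay above 97.3%, 99.6% and 99.6% of the 31396 promoters tested, whose median was 6. The Bmi1 promoter had 70.4% G or C and 21 CpG pairs (above 83.2% of promoters), and that of Dnajc1 54.8% and 12 (above 66.0%). The Msrb2 promoter was ordinary in composition, with 52.8% G or C and 7 CpG pairs (above 53.2%). Composition and calls did not always go together. The Spag6 promoter, with no peak over it in any library, had 60% G or C and 16 CpG pairs (above 74.0%). Also without a peak over them were the promoters of Armc3 (49.2% G or C) and of the first and second Mllt10 starts (42.4% and 41.2%). GC boxes, found in 33.0% of all promoters, numbered 6 at Bmi1, 7 at Pip4k2a, 4 at Commd3, 2 at Mllt10 and 2 at Dnajc1. The E-box CACGTG, found in 6.02% of promoters, stood at -215 to -210 of Bmi1, -8 to -3 of Commd3 and -125 to -120 of Dnajc1, counted from the start. The ETS motif, found in 7.01% of promoters, stood at -49 to -43 of Dnajc1. These are matches of letters, not bound sites.

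Across the neighbourhood, MA9 leukaemia had the most open regions, Control marrow somewhat fewer, MLL-ENL leukaemia few and BRD9-NUTM1 leukaemia almost none. Control libraries 1, 2 and 3 held 24, 20 and 27 peaks, MA9 libraries 33, 29 and 35, ME libraries 7 each, and BN1 libraries 2, 1 and 1. No group overlapped another (exact permutation p = 6.49e-05, the smallest possible). In bulk samples such as these, fewer cells with an open region and less opening per cell cannot be told apart. The whole lists differed in length in the same order, from 25583 to 28067 peaks in Control, 32013 to 33634 in MA9, 8551 to 9668 in ME and 3014 to 4259 in BN1. The lists gave no read numbers, so the depth is unknown and a region without a peak was only not called.

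**Figure D1:**
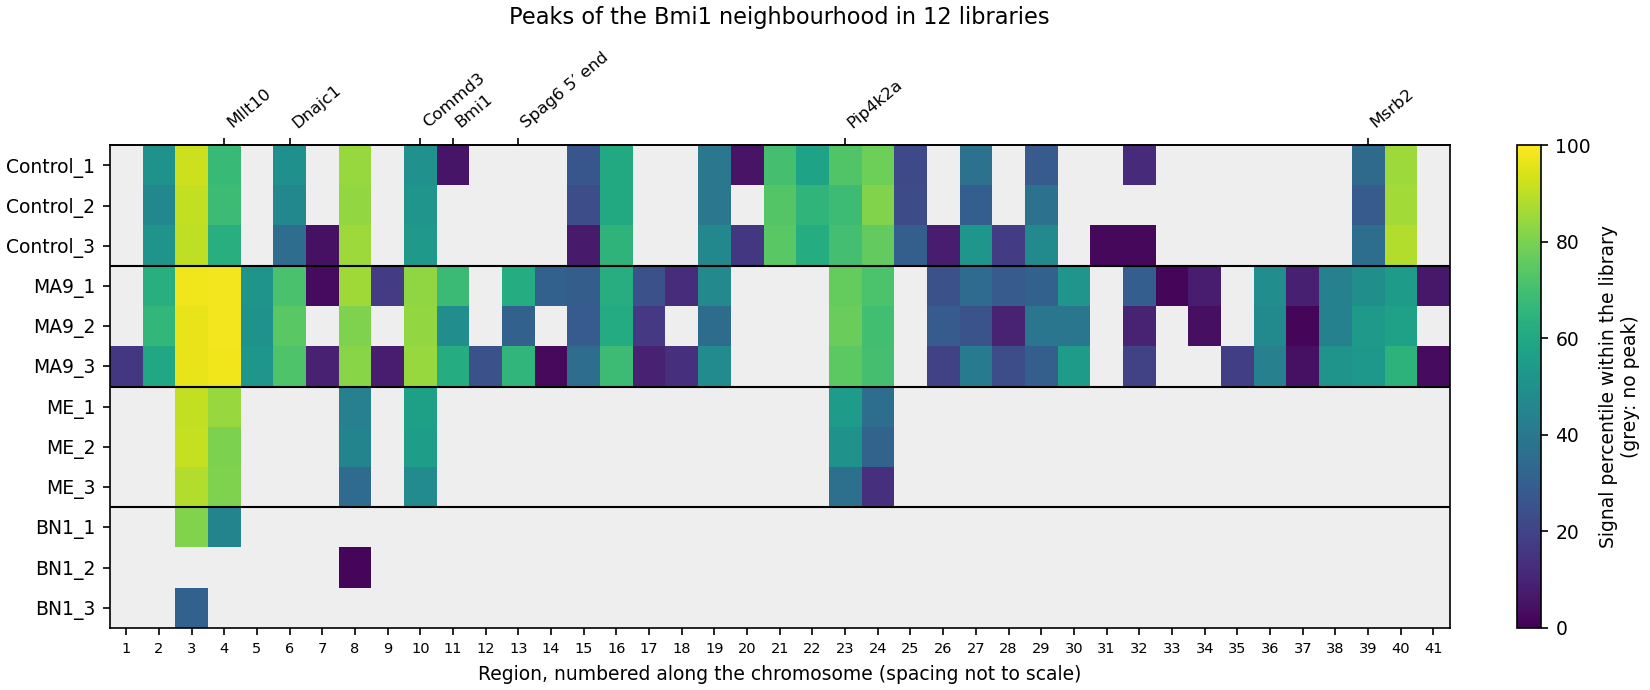
Signal of the 41 regions (columns, in chromosome order) in the 12 libraries (rows), as the percentile of each region's strongest peak within its own library, with grey where no peak was called. The 3 ME libraries share the same 6 regions, and BN1 libraries hold 2, 1 and 1 regions, none of them common to all 3.

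As a share of their own peaks, the BN1 lists were also poorer in this neighbourhood, but this share does not take list length out. The 2000 strongest peaks of each Control library held 0 here, and the 25000 strongest held 20 or 21. Per 10000 peaks of a list, MA9 had 9.898 ± 0.886 in the neighbourhood (SD, n = 3), Control 8.72 ± 0.901, ME 7.57 ± 0.536 and BN1 3.64 ± 0.935 (exact permutation p = 0.000909 across the 4 groups). BN1 libraries ran from 2.91 to 4.70 and all others from 7.24 to 10.8, with no overlap. The difference between BN1 and the 6 MLL fusion libraries was -5.09 per 10000 (exact two-sided permutation p = 0.0119, the smallest possible over 84 splits). All leukaemias together differed from Control by -1.68 per 10000, which did not pass (exact two-sided permutation p = 0.345). When every list was held to its 3014 strongest peaks, the length of the shortest, each library kept 1 or 2 peaks here: 1 in each Control library, 2 in each MA9 and ME library, and 2, 1 and 1 in BN1. That difference was a single peak (exact permutation p = 0.0455). It did not pass without any 1 of the Control replicates (exact permutation p = 0.1), and ranking peaks by significance instead put BN1 on top, with 2, 1 and 1 peaks against 0 in Control and 1 in each MA9 and ME library (exact permutation p = 0.0182). With only the 1507 strongest peaks kept, BN1 libraries held 1, 0 and 0 peaks, Control 0 each, MA9 2 each and ME 2, 1 and 1 (exact permutation p = 0.00779). Among the strongest peaks by signal BN1 thus had fewer than MA9 on average, but not fewer than Control.

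**Figure D2:**
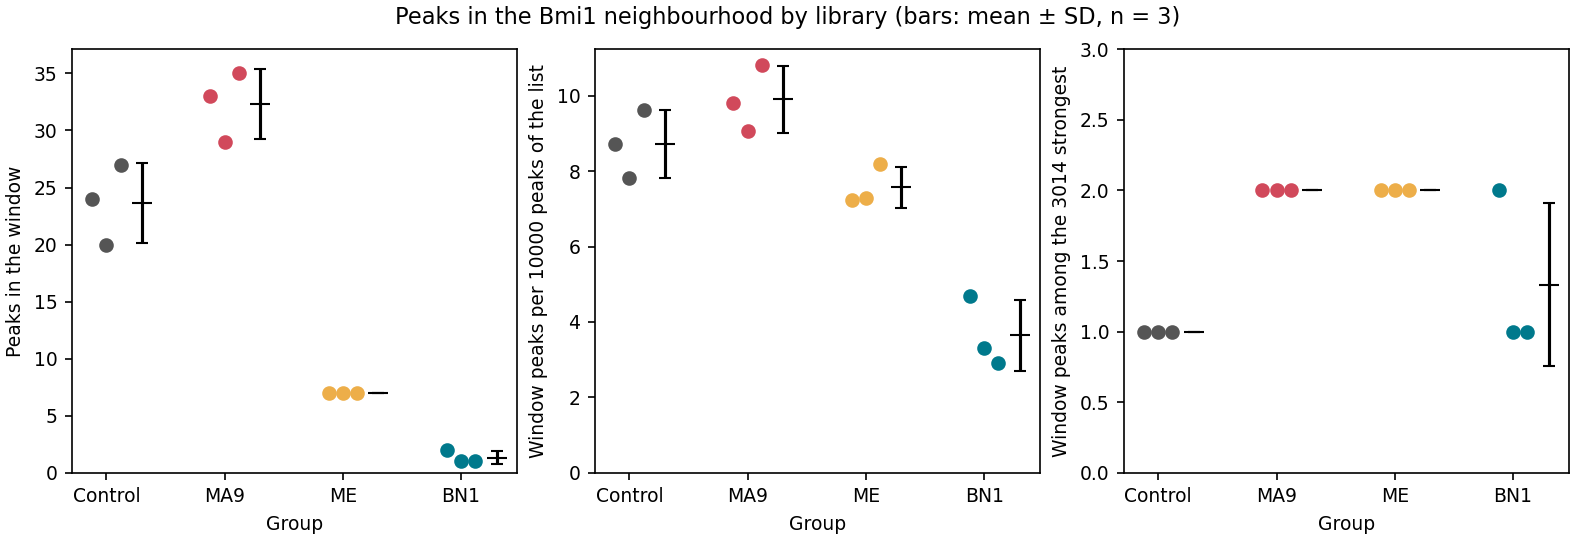
Peaks in the neighbourhood per library: number (left), number per 10000 peaks of the list (middle) and number among the 3014 strongest peaks (right); points are libraries and bars mean ± SD of 3. BN1 lies lowest in the first 2 panels, while in the right panel all libraries have 1 or 2.

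**Figure D3:**
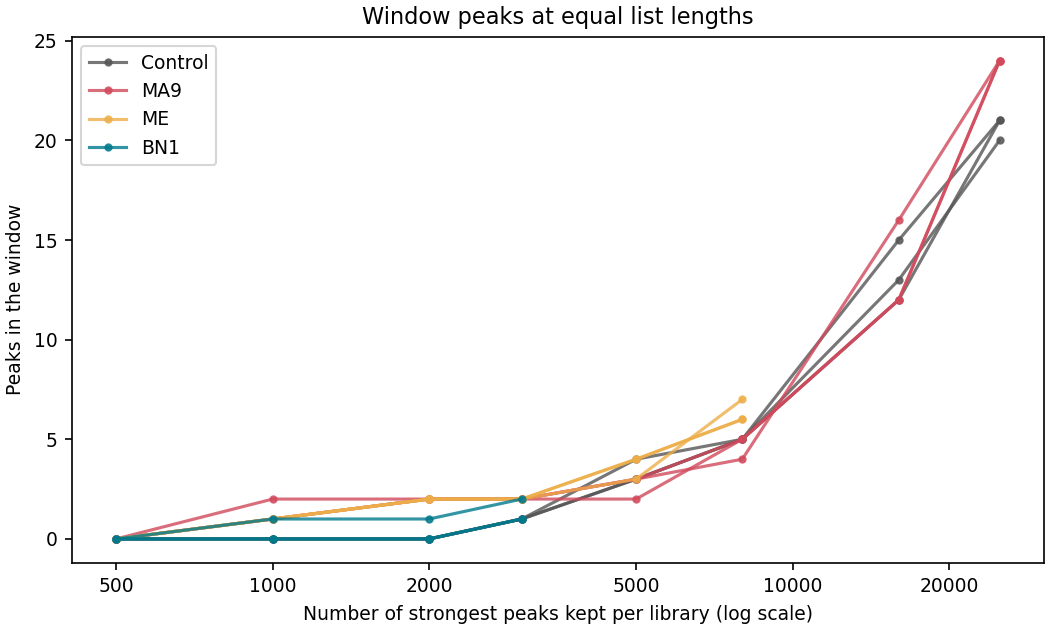
Peaks in the neighbourhood (y) when only the strongest peaks of each library are kept (x, log scale), 1 line per library. With 8000 peaks kept, Control libraries held 5 each, MA9 libraries 4 or 5 and ME libraries 6 or 7, and with 25000 kept, Control held 20 or 21 and MA9 24 each.

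Most regions of the neighbourhood were called in Control or MA9 alone or in both. All 3 libraries of a group had a peak in 18 of the 41 regions in Control (43.9%, against 52.5% of all 43905 regions), in 26 in MA9 (63.4% against 62.4%), in 6 in ME (14.6% against 17.1%) and in 0 in BN1 (against 5.64%). No region was called in all 12 libraries, where 5.48% of all regions were. The 6 regions called in ME were each called in all 9 Control, MA9 and ME libraries, a pattern that 16% of all regions had. They lay at Mllt10 (2 regions), at the starts of Commd3 and Pip4k2a, between Dnajc1 and Commd3, and beside Pip4k2a. The other 35 regions had no ME or BN1 peak. Most of all 43905 regions also lacked a peak in each of these libraries: ME libraries had one in 7820 to 8788 of them and BN1 libraries in 2770 to 3839.

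Among the listed genes, a peak within 1 kb of a start was called in all libraries of the group at 5 of 9 in Control (45.2% of 16456 protein-coding genes), 6 of 9 in MA9 (47% of genes), 3 of 9 in ME (28.7% of genes) and 0 of 9 in BN1 (10.9% of genes). Mllt10, Commd3 and Pip4k2a made up the 3 in ME. Dnajc1 and Msrb2 joined them in Control and MA9, and Bmi1 in MA9 alone. The starts of Spag6 and Armc3 and both ends of Skida1, for which no start was given, had no peak in any library. Of all protein-coding genes, 47.9% likewise had no start call in any library. Spag6 and Armc3 encode proteins of motile cilia and sperm tails, and Skida1 is little studied.

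At Bmi1 itself (chr2:18677018-18686629), the start was called in MA9 and hardly elsewhere. Replicates 1, 2 and 3 of MA9 had a peak there at the 68.2, 48.9 and 61.8 percentile of signal, that is, stronger than about that percentage of the peaks of the same library. Control replicate 1 had a peak at the 5.73 percentile, among its weakest. Control replicates 2 and 3 and the ME and BN1 libraries had none. Of the protein-coding genes, 65 (0.395%) had the same calls over the 12 libraries. The 4 peaks had their summit at the same base, -182 from the start, and covered 254 bp in Control replicate 1 and from 504 to 545 bp in MA9. All ended before the start: they overlapped the printed promoter by 204, 193 and 204 bp in MA9 and 193 bp in Control replicate 1, a stretch that holds the E-box. The merged region was chr2:18676427-18676971. Within the gene, MA9 replicate 3 alone had 1 more peak, 3.96 kb past the start (24.7 percentile).

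Commd3 (chr2:18672435-18676231), whose start lies 4.58 kb before that of Bmi1, was called in all 9 Control, MA9 and ME libraries and in no BN1 library. This region (chr2:18671934-18672775) also covers the start of Gm33355, a long non-coding RNA that begins 31 bp away on the other strand, and the peaks cannot be divided between them. The percentiles of replicates 1, 2 and 3 were 50.6, 52.2 and 54.3 in Control, 83.5, 83.7 and 84.7 in MA9, and 56.7, 56.0 and 48.2 in ME. By this percentile MA9 lay above both other groups, which overlapped. On the common scale of ranks given below ME lay above MA9, so no direction between MA9 and ME can be given. The peaks were also wider in MA9, from 772 to 834 bp, than in Control (355 to 423 bp) and ME (352 to 358 bp). In the 12 lists as deposited, 12.1% of protein-coding genes had the calls of Commd3 and Pip4k2a.

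**Figure D4:**
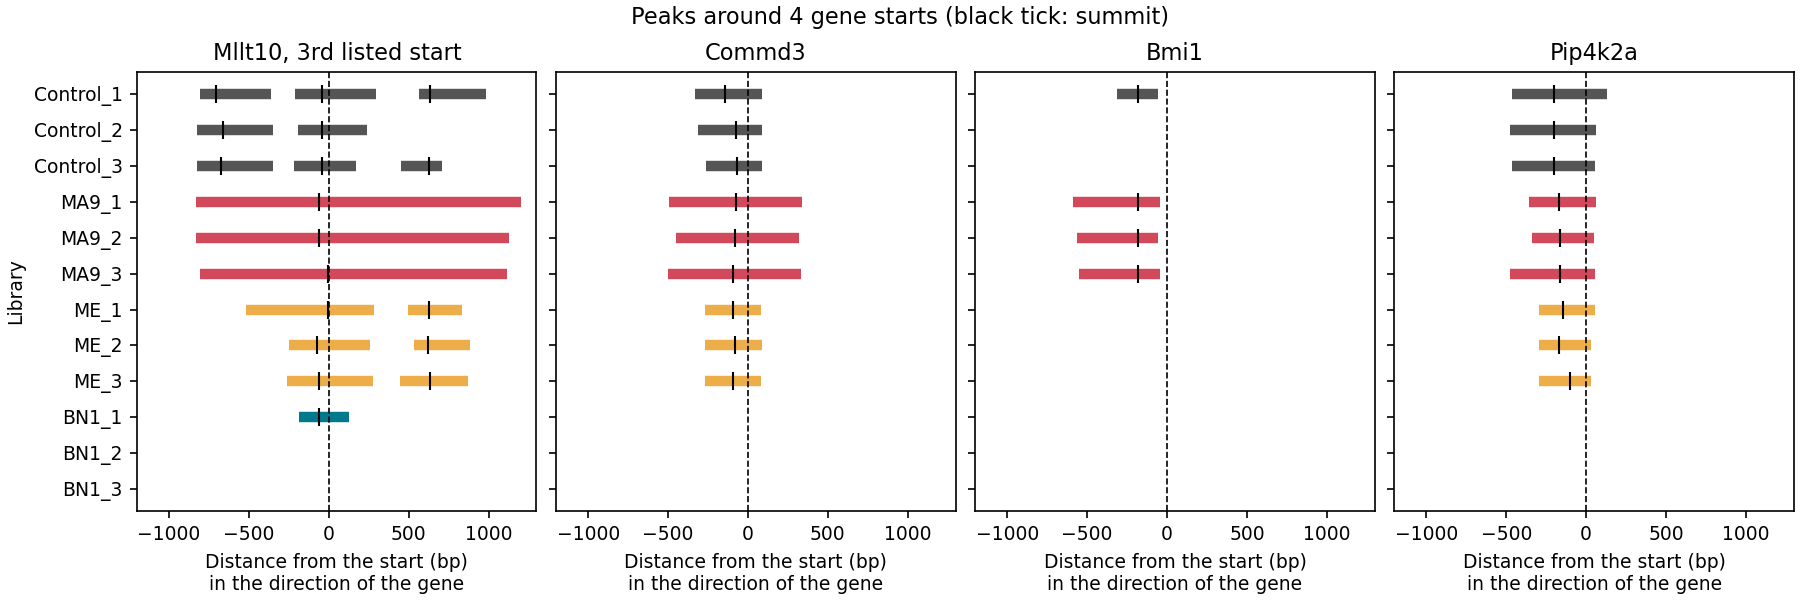
Peaks (bars) and their summits (ticks) in each of the 12 libraries around the starts of Commd3, Bmi1, Pip4k2a and Mllt10 (the third listed start), as distance in bp along the gene. MA9 holds 1 peak of 1921 to 2035 bp at Mllt10 where Control holds 2 or 3 shorter ones, and at Bmi1 the peaks end before the start.

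Mllt10 (chr2:18055160-18212390) carried the strongest peaks of the neighbourhood in every library except BN1 replicate 2. The table of starts gives it 3, at 18055237, 18055728 and 18064585. A region beginning 0.424 kb past the second (chr2:18056152-18057995) had percentiles of 92.2, 90.7 and 90.5 in Control, 97.8, 96.7 and 96.8 in MA9, and 90.8, 91.3 and 88.3 in ME. BN1 replicates 1 and 3 had it at 81.1 and 31.0, and replicate 2 did not. All Control libraries and MA9 replicates 2 and 3 had a second, weaker peak in this region. Its summit, at 18057849 to 18057854 in Control and 18057850 in MA9 replicate 3, lay in the hairpin of the microRNA gene Mir7655 (chr2:18057846-18057903), and that of MA9 replicate 2, at 18057775, outside it.

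At the third start of Mllt10 the region (chr2:18063753-18065787) separated the groups further. Its percentiles were 68.0, 68.7 and 63.0 in Control, 98.2, 98.2 and 97.8 in MA9, and 84.6, 80.3 and 80.5 in ME, with no overlap between the groups. BN1 replicate 1 alone of its group had it, at 45.0. In MA9 it was a single peak, in Control 2 or 3 peaks that together covered 912 to 1378 bp, and in ME 2 that covered 861 to 1143 bp. Among the peaks of the whole list, the MA9 peak ranked 609, 576 and 714 from the top in replicates 1, 2 and 3.

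Percentiles of lists of unequal length are not on 1 scale, so the 6 regions called in all Control, MA9 and ME libraries were also ranked by summed signal among the 7016 regions with such calls. BN1 could not enter. The exact permutation test had 280 splits (smallest p 0.00357), with Benjamini-Hochberg adjustment over the 7016 regions. All 6 differed across the 3 groups, as did 86.4% of the 7016, so that 6 of 6 is near the background. The region of the third Mllt10 start ranked at 47.4 ± 4.09 in Control (SD, n = 3), 90.2 ± 1.06 in MA9 and 81.3 ± 1.90 in ME (adjusted exact permutation p = 0.00803). The other Mllt10 region ranked at 76.9 ± 2.89, 88.3 ± 0.413 and 85.3 ± 1.19 (the same adjusted p). For the Commd3 start the ranks were 9.098 ± 1.43 in Control, 31.5 ± 2.60 in MA9 and 40.5 ± 1.08 in ME (adjusted exact permutation p = 0.00803). By signal per bp, which sets peak width aside, the gap in rank between MA9 and Control at the third Mllt10 start was 16.9, against 42.8 by summed signal. The test across the 3 groups by signal per bp passed there (adjusted exact permutation p = 0.0349). By the same measure the Commd3 difference between MA9 and Control went to -0.0333. The test across the 3 groups did not pass at Commd3 (adjusted exact permutation p = 0.0607), and MA9 was not tested against Control alone. At these 3 regions the rank by summed signal was thus higher in both MLL leukaemias than in Control in every library.

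**Figure D5:**
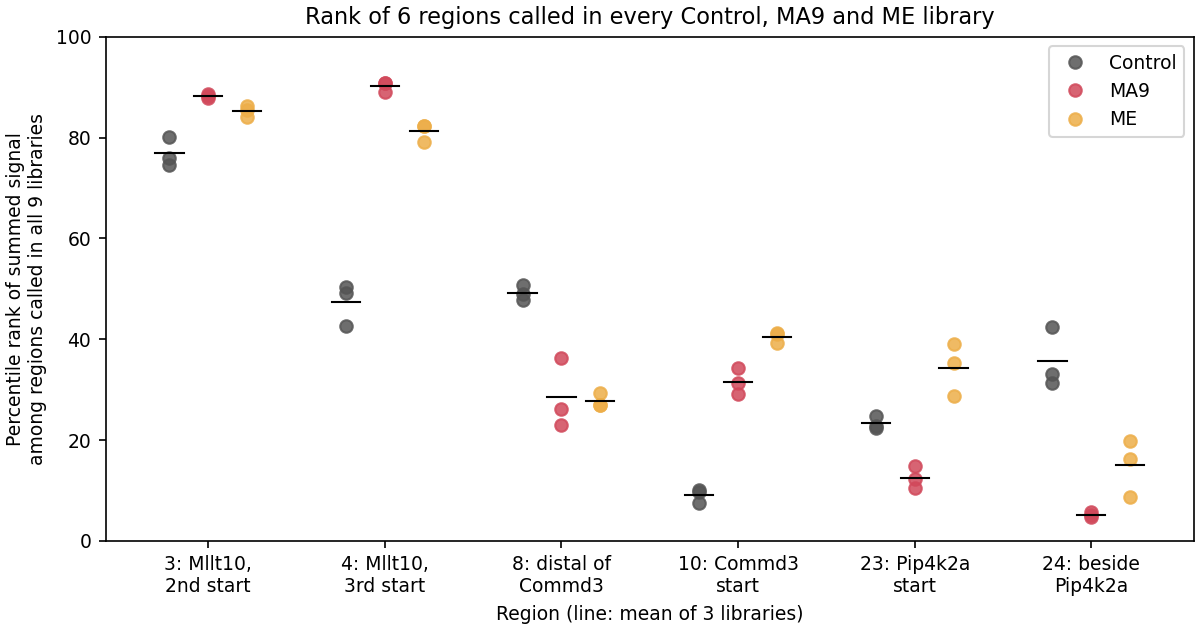
Percentile rank of summed signal (y) of the 6 regions (x) among the 7016 regions called in all 9 Control, MA9 and ME libraries; points are libraries, lines means of 3. The 2 Mllt10 regions and the Commd3 start lie above Control in both MLL leukaemias, and the regions between Dnajc1 and Commd3 and 6.66 kb before Pip4k2a lie below it.

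Pip4k2a (chr2:18842255-18998291) encodes a lipid kinase that phosphorylates phosphatidylinositol 5-phosphate. In and near it, 3 regions were called in all Control libraries and in no leukaemia library, a smaller share than among all regions. The start region (chr2:18997990-18998600) was called in all 9 Control, MA9 and ME libraries. It also covers the start of the long non-coding RNA 4930426L09Rik, 198 bp away. Its percentiles were 72.7, 68.5 and 70.1 in Control, 76.5, 77.3 and 74.7 in MA9, and 54.8, 51.1 and 37.0 in ME. Its rank among the 7016 regions was 23.3 ± 1.31 in Control, 12.5 ± 2.20 in MA9 and 34.4 ± 5.28 in ME (adjusted exact permutation p = 0.00803). MA9 lay below Control by that rank and above it by percentile in the list and by signal per bp, so no direction between these 2 groups can be given.

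A region 6.66 kb before the Pip4k2a start (chr2:19004785-19005191) had percentiles of 77.8, 80.9 and 76.1 in Control, 71.7, 69.8 and 70.5 in MA9, and 36.1, 31.9 and 13.8 in ME. It ranked at 35.6 ± 5.98 in Control, 5.16 ± 0.566 in MA9 and 14.9 ± 5.63 in ME (adjusted exact permutation p = 0.00803), and Control lay above both without overlap. Inside the gene, 13.3 kb and 8.91 kb past the start, 2 regions were called in all Control libraries and in no leukaemia. The first (chr2:18984463-18984853) had percentiles of 70.6, 73.3 and 74.4, the second (chr2:18988864-18989214) of 58.1, 65.5 and 61.8. The remaining region of this kind lay 13.4 kb before the start (chr2:19011553-19011802) and was weaker, with a mean percentile of 25.1. Together these were 3 of 41 regions called in all Control libraries and no other (7.32%, against 12.1% of all regions).

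In the gap between Dnajc1 and Commd3 lay the only region that BN1 replicate 2 had in the neighbourhood. This region (chr2:18607896-18609408) ended 63.03 kb before the Commd3 start and contains no listed gene. Its percentiles were 84.6, 83.9 and 85.3 in Control, 85.8, 80.8 and 82.1 in MA9, and 43.4, 45.2 and 35.0 in ME. In BN1 replicate 2 it stood at 1.76, and BN1 replicates 1 and 3 did not have it. It ranked at 49.2 ± 1.41 in Control, 28.5 ± 6.999 in MA9 and 27.8 ± 1.31 in ME (adjusted exact permutation p = 0.0419). With the replicate block this call was lost (adjusted exact permutation p = 0.124). By signal per bp Control and MA9 differed by 0.0855, and the test across the 3 groups did not pass (adjusted exact permutation p = 0.163). The peak covered 1342 to 1438 bp in Control, 886 to 1135 bp in MA9 and 437 to 452 bp in ME.

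The comparison of MA9 with Control asked where 2 groups with long lists differed. MA9 had 7 gained regions, called in all its libraries and in no Control library, which is 17.1% of the neighbourhood against 21.1% of all regions. It had 3 lost regions in the opposite sense (7.32% against 12.1%). Without MA9 replicate 2, the gained regions numbered 11, and in lists of equal length 1 was gained and 0 lost. None of the 7 was called in ME or BN1, and 19.5% of all regions had that pattern. One (chr2:18693946-18694785) covered the 5′ end of the annotated span of Spag6, which begins at 18694011, while the start listed for Spag6, at 18699022, had no peak. MA9 replicates 1, 2 and 3 had it at 61.8, 31.2 and 65.6.

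Of the other gained regions, 3 lay within 7.39 kb of the start of the long non-coding RNA 4930447M23Rik, between Armc3 and Msrb2. The first of these (chr2:19343889-19344550) covered its start and had percentiles of 49.0, 47.7 and 43.6. Another gained region (chr2:18195739-18196045) lay within Mllt10, 0.541 kb from the start of the long non-coding RNA Gm39761, with percentiles of 51.7, 50.8 and 52.7. The last 2 lay within Pip4k2a, 58.8 kb past its start, and 53.3 kb before Armc3. These gains were of middle or low strength within the MA9 lists.

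Control and MA9 shared 15 regions, 36.6% of the neighbourhood against 37.3% of all regions. Ranked by summed signal among the 16389 regions the 6 libraries share, 6 of the 15 were higher in all MA9 than in all Control libraries (40%, against 38.2% of all) and 4 were lower (26.7%, against 38.8%). With 3 libraries against 3 an exact permutation test cannot go below 0.1. The Commd3 start moved from 33.8 ± 2.54 in Control to 68.3 ± 1.53 in MA9 (SD, n = 3). The start of Dnajc1, which encodes a chaperone partner of the endoplasmic reticulum, moved from 26.1 ± 8.25 to 50.01 ± 3.12. Within their lists the Dnajc1 peaks stood at 50.3, 46.7 and 35.7 in Control and 71.4, 74.3 and 72.5 in MA9, without overlap. They covered 282 to 420 bp in Control and 604 to 630 bp in MA9, and summed signal does not set this width aside.

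Msrb2, which encodes a mitochondrial enzyme that repairs oxidised methionine, had a start region and an internal region that differed in opposite directions. The start region (chr2:19371555-19372156) had percentiles of 34.6, 28.6 and 36.1 in Control and 49.6, 53.7 and 53.2 in MA9. The internal region, 16.7 kb past the start (chr2:19388376-19389116), had 85.2, 86.3 and 88.5 in Control and 54.7, 57.2 and 64.6 in MA9. By rank among shared regions the internal one went from 77.3 ± 2.53 to 32.2 ± 6.60, the widest gap of the 15, and the start region from 16.4 ± 0.627 to 25.3 ± 3.62. These ranks by summed signal do not set peak width aside. The internal region covered 723 to 741 bp in Control and 298 to 373 bp in MA9, the start region 371 to 501 bp and 566 to 601 bp. Neither region was called in ME or BN1.

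In BN1 against Control, 0 regions were gained (0.082% of all regions) and 15 lost (36.6%, against 43.4% of all regions). In ME against Control, 0 were gained (0.911%) and 12 lost (29.3%, against 33.4%). MA9 against ME gave 20 gained (48.8%, against 41.4%) and 0 lost (0.107%), and BN1 against ME 0 gained (0.0456%) and 3 lost (7.32%, against 8.09%). These 3 were the starts of Commd3 and Pip4k2a and the region 6.66 kb before Pip4k2a. These counts moved with list length: with peaks of at least 2 times the lowest signal, MA9 against ME gave 12 gained and ME against Control 7 lost, and in lists of equal length the losses and the 20 gains all went to 0. The comparisons with Control share its 3 libraries.

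Other subunits of PRC1 outside the neighbourhood were called as follows. Of 19 such genes, the start (or, where no start was given, either end) was called in all libraries at 13 in MA9, 11 in Control, 7 in ME and 2 in BN1. Of all protein-coding genes, 47% were so called in MA9, 45.2% in Control, 28.7% in ME and 10.9% in BN1, and 2 of 19 in BN1 is near that background. The 2 in BN1 were Cbx8 and Pcgf5, a paralog of Bmi1. Pcgf5 and Cbx8 were called at a listed start in all 12 libraries and could be ranked among 2407 such regions. Pcgf5 ranked at 35.9 ± 7.28 in BN1 (SD, n = 3), 45.3 ± 1.19 in ME, 25.1 ± 3.70 in MA9 and 9.46 ± 1.16 in Control (adjusted exact permutation p = 0.000683). Cbx8 ranked at 52.5 ± 2.04, 55.4 ± 1.85, 49.9 ± 4.10 and 40.5 ± 4.64 in the same order (adjusted exact permutation p = 0.00339). Of all 2407, 81.7% passed. Bmi1, like most of the list, had no call in ME or BN1: of the 19 genes, 11 had none in ME and 17 none in BN1. Most protein-coding genes had none either: of all 16456, 11085 had none in ME and 13748 none in BN1. Yaf2, for which either gene end counted, had the same calls as Bmi1 over the 12 libraries.

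Of 10 genes of the AF10 and DOT1L complexes and their MLL partners, 9 were called in MA9, 9 in Control, 8 in ME and 3 in BN1 by the same rule, that is 90%, 90%, 80% and 30%, against the shares of all genes of 47%, 45.2%, 28.7% and 10.9%. The 3 were Ccnt1, Kmt2a and Men1, and all 3 passed the rank test, as did 81.7% of the 2407 regions. Ccnt1 ranked at 76.5 ± 3.41 in BN1, 64.5 ± 2.28 in ME, 59.5 ± 0.478 in MA9 and 75.0 ± 1.43 in Control (adjusted exact permutation p = 0.00137). Kmt2a ranked at 30.7 ± 15.5, 41.1 ± 2.38, 27.3 ± 3.67 and 12.3 ± 1.34 in the same order (adjusted exact permutation p = 0.0311). Men1, which encodes the menin cofactor of MLL, ranked at 52.4 ± 7.69 in BN1, 19.2 ± 5.73 in ME, 10.7 ± 2.62 in MA9 and 12.5 ± 0.487 in Control (adjusted exact permutation p = 0.00262). Dot1l was called in all Control, MA9 and ME libraries and in BN1 replicate 1, at 41.7. By the 1 kb rule Mllt10 had the same calls, as had 2.86% of protein-coding genes. The Mllt10 peak of BN1 replicate 3 began 1082 bp past the second start, outside that distance.

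Cdkn2a, the known silenced target of Bmi1, had a start peak in the 3 MA9 libraries (62.4, 56.9 and 62.4 percentile) and in no other, so that Bmi1 and Cdkn2a were both called in MA9. Hoxa9 was called in all MA9 libraries and in ME replicates 2 and 3, Myb in all MA9 libraries and Control replicates 1 and 3, and Meis1 in all Control and MA9 libraries. None of these 4 was called in BN1, where 13748 of the 16456 protein-coding genes had no start call in any library. All 4 were called in MA9, where 47% of genes were.

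The start calls of the groups differed beyond this neighbourhood too. A start without a peak was only not called, and the ME and BN1 lists were short. Of all 16456 protein-coding genes, 11085 had no start call in any ME library and 13748 none in any BN1 library. The start of Ptprc, which encodes CD45 itself, was called in all Control and MA9 libraries and in no ME or BN1 library, although all were labelled CD45.2+. Of 4 leucocyte genes, Ptprc included, 4 were called in all libraries of Control and of MA9, and 2, Spi1 and Laptm5, in those of ME and of BN1. Of 6 markers each, B cell genes were called at 6 in Control and 0 in each leukaemia, neutrophil genes at 6 in Control, 2 in MA9 and 0 in ME and BN1, and erythroid genes at 5, 1, 0 and 0. T cell genes were called at 0 of 6 in every group. The shares of all protein-coding genes were 47% in MA9, 45.2% in Control, 28.7% in ME and 10.9% in BN1. The part of these differences in the regions near Bmi1 was not tested.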

How the data were processed

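Genrich, deepTools 3.5.1, Picard 3.2.0 and Bowtie2 2.5.4 are named with the build mm10 (GRCm38), per the submitters' processing notes. Options were not given in the sources used here. The authors deposited 1 peak list per library. The signal of a peak as deposited was never below 200.0 and was read as Genrich's area under its significance curve. The deposited −log10 p values served for alternatives only, and the deposited −log10 q and score (capped) were not used.

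Peaks overlapping by 1 bp or more were merged on chromosomes 1 to 19. Percentiles were taken within a whole list. A region was gained where all libraries of the first group and none of the second had a peak. Ranks used summed signal. Tests were exact permutation tests, with Benjamini-Hochberg adjustment over all regions ranked and a threshold of 0.05, run in Python 3.11.15 and tested on simulated data. Starts came from the RefSeq table, for 8 of 9 listed genes. Exons were not used. Members and gene lists were chosen with earlier results of these data known. One gene of the PRC1 list is not reported here and is in no count. Ranking among 9 libraries was chosen after seeing that no region near Bmi1 was called in all 12, which also left the rule naming genes most like Bmi1 without a value. All listed genes were described. So were regions called in all 9 Control, MA9 and ME libraries, those gained or lost in MA9 against Control, and those among the strongest. Of the other regions called in all of 1 group and none of another, several were given by count only. A few others were chosen after their values were seen. Alternatives changed the peak threshold, overlap, borders, list length, ranking, distance to a start and libraries used.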

Additional observations from a re-analysis of the deposited data

How the results depend on the processing

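With each list held to its 3014 strongest peaks, regions gained and lost were 0 lost in BN1 against Control, 1 and 0 in MA9 against Control, 1 and 0 in ME against Control, 0 gained in MA9 against ME and 0 lost in BN1 against ME, and listed starts called in all libraries numbered 1 in Control, 1 in MA9 and 1 in ME. Only 1 or 2 peaks per library remained there, so few calls were possible. With peaks of at least 2 times the lowest signal, ME against Control had 7 lost, MA9 against ME 12 gained, Control 3 listed starts, and 3 regions remained to be ranked across Control, MA9 and ME, of which 3 passed. With 2 of 3 libraries needed, MA9 against Control had 12 gained. By signal per bp, 3 of 6 regions passed across the 3 groups. The Pip4k2a start did not (adjusted exact permutation p = 0.189), and its MA9 minus Control difference went from -10.8 to 31.4. The region between Dnajc1 and Commd3 (0.163) and the Commd3 start (0.0607) did not pass either. Their MA9 minus Control differences shrank to 0.0855 and -0.0333. By percentile in the list, the Pip4k2a difference also changed sign, to 5.75 (adjusted exact permutation p = 0.00502 across the 3 groups).

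Peaks per library among the 3014 strongest gave p = 0.0182 with the order of BN1 reversed when ranked by significance, and from 0.00649 to 0.1 with 1 library left out (exact permutation). Leaving out 1 library gave 7 to 11 regions gained in MA9 against Control. The cause of these changes was not tested. Replicate numbers paired the libraries weakly at most. Over the 2407 regions called in all, deviations of same-numbered libraries correlated from -0.05 to 0.126 (median 0.0425), with 1 of 18 pairs over 0.1. The 36 other pairs ran from -0.115 to 0.0894 (median -0.0228), and this difference was not tested. With the replicate block, the peaks among the 3014 strongest gave an exact permutation p of 0.0833, the peaks per 10000 one of 0.00174, and 5 of 6 ranked regions passed, the exception being the region between Dnajc1 and Commd3 (adjusted exact permutation p = 0.124). Read depth is unknown, which limits what an absent call can show.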
